A study of Homo sapiens with 25 samples.

Results

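The regions described here are short H3K4me3 peaks that lie far from any annotated gene start. H3K4me3 peaks of the control and PML knockdown lists on chromosomes 1 to 22 were merged where they overlapped, and a merged region was kept when it lay more than 5 kb from every GENCODE transcription start of any gene type, was under 3 kb wide and had its midpoint outside the PML domains. Of 27241 merged regions, 7468 lay more than 5 kb from a start and 6038 (22.2%) met all 3 conditions. Another 60 were too wide, and 1378 had their midpoint in a PML domain, 8 of which were also too wide. The regions were thus chosen by their H3K4me3 peak calls, width, distance to a start and PML domain calls; these describe the set and are no finding. Below, the 6038 are called distal regions. They are set beside 15477 H3K4me3 regions within 5 kb of a start that met the same width and PML conditions, and beside 11446 distal H3K27ac regions with no H3K4me3 peak.

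The cells were MDA-MB-231, an established human triple-negative breast cancer line, either control cells or cells in which PML was silenced with a lentiviral short hairpin RNA. Both were fixed with disuccinimidyl glutarate and formaldehyde before immunoprecipitation. Each peak list came from replicates 1 and 2 called together, so there is 1 list per mark and condition and no difference between conditions has a replicate check. The vector of the control cells is not given in the labels. The 2 conditions are named ct and pml in the peak lists, and reading them as control and knockdown is an assumption. The 3 PML libraries name no condition, so the PML domains used by the rule cannot show the knockdown. On chromosomes 1 to 22 the H3K4me3 lists held 21550 control and 26997 knockdown peaks, and the H3K27ac lists 41198 and 42436. Read depth is unknown, and a region missing from a list was under the authors' threshold, which is not absence. Of the markers checked, 5 of 5 basal and mesenchymal genes (VIM, CD44, CAV1, AXL and EGFR) and 4 of 5 luminal genes had a promoter H3K4me3 peak in both lists, so promoter H3K4me3 alone did not separate the 2 lineages.

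H3K4me3 is trimethylation of lysine 4 of histone H3, a mark laid down mainly at active and CpG-rich promoters by the SET1 and MLL methyltransferases. Enhancers usually carry monomethylated lysine 4 together with H3K27ac, the acetylation of lysine 27, and strong enhancers can also hold some H3K4me3. Transfer RNA genes, transposable elements and unannotated promoters are other known places for H3K4me3 outside annotated gene starts.

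Sequences of several distal regions show what the set contains. Each window holds the 300 bases around the peak summit, on the plus strand of hg38, and the nearest protein-coding gene by start is given as its name. The first pair had among the highest control fold enrichments of regions in both lists, the second pair among the highest knockdown folds of regions in the knockdown list only, and the third pair the highest control folds of regions in the control list only. Capitals mark every CpG.

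ADAMTS8, both lists, chr11:130434711-130435010: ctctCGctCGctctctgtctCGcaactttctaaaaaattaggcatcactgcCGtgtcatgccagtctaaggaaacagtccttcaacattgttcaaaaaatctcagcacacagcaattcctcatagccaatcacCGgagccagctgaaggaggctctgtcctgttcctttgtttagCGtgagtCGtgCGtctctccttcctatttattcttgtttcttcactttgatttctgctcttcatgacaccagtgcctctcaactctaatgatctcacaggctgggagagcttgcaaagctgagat

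ATP9B, both lists, chr18:79245795-79246094: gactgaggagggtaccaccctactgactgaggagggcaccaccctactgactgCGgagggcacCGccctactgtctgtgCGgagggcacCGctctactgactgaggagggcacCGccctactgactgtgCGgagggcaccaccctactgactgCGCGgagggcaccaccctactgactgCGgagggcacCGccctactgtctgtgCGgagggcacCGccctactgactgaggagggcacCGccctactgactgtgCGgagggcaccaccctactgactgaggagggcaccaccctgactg

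IGFBP7, knockdown list only, chr4:57119287-57119586: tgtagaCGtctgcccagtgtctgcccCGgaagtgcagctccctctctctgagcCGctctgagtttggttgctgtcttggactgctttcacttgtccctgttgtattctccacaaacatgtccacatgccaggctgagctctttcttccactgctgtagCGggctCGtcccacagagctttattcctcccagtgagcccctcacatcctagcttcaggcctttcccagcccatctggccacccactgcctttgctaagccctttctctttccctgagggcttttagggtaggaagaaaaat

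FAM120B, knockdown list only, chr6:170438172-170438471: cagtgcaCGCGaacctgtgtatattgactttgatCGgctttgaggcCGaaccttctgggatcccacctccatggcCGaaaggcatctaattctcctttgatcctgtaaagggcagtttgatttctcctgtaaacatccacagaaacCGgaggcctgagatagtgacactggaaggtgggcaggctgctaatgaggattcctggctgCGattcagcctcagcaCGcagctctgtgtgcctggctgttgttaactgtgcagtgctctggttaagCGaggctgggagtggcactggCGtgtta

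WSB1, control list only, chr17:25920054-25920353: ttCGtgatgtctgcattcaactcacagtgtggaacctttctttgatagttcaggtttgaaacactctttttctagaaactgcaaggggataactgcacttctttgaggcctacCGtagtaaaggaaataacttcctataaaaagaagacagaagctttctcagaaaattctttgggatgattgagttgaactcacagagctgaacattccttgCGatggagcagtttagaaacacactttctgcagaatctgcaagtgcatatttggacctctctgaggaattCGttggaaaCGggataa

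PROS1, control list only, chr3:91572701-91573000: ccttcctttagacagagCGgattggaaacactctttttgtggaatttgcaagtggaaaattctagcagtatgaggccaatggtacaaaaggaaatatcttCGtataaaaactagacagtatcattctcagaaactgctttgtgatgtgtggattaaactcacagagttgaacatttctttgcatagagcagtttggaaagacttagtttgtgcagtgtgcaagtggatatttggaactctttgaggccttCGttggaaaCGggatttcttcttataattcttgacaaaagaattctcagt

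The ADAMTS8 window has 8 CpGs and the ATP9B window 14, in a short unit repeated head to tail. The ATP9B window matched itself at 76.4% of positions when shifted by the best lag between 10 and 100 bases. The control-only pair held 5 and 4 CpGs at a GC content of 40.3% and 37.7%.

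The next window, nearest to TRIML1, held the most matches to the AP-1 motif TGANTCA, which Jun and Fos proteins bind. Capitals mark those matches.

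TRIML1, knockdown list only, chr4:188447810-188448109: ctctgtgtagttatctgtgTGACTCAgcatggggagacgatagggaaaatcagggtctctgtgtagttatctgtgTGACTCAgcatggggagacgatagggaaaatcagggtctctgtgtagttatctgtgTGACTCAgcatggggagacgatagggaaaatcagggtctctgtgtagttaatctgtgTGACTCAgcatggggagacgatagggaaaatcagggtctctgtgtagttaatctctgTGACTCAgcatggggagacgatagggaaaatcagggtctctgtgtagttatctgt

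It has 5 matches, all of them in copies of a repeated unit. As background to the tRNA genes below, 3 tRNA genes inside distal regions are shown from RefSeq coordinates, read along the strand on which the B box was found. Capitals mark the B box, an internal promoter element of RNA polymerase III, searched as GTTCNANNC.

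TRP-AGG2-4, chr11:76235513-76235584, plus strand: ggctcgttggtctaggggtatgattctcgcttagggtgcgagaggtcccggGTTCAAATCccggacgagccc

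TRP-TGG2-1, chr11:76235825-76235896, minus strand: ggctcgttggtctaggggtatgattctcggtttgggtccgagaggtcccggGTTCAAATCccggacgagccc

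TRL-CAA4-1, chr1:248873855-248873960, plus strand: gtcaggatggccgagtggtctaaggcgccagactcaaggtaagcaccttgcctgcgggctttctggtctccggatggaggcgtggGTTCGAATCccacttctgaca

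Distal regions were narrow and weak beside those near starts. Their median width was 689 bp against 1312 bp. Fold enrichment, the authors' ratio for each peak, had a median of 4.68 among control peaks and 5.21 among knockdown peaks, against 11.4 and 15.6 near starts. By rank within its own list, the median distal region stood at the 22.2 percentile of control folds and the 25.6 percentile of knockdown folds. The distance to the nearest start had a median of 14.9 kb. Protein-coding genes held 48.3% of the regions, 10.3% lay in lncRNA genes, 40.6% were intergenic, and 7.65% overlapped an annotated exon. Just outside the distance rule, at 4 to 5 kb, 526 regions had a median knockdown fold of 4.99 and 56.7% were in the knockdown list only. Just inside it, at 5 to 6 kb, 473 regions had 5.08 and 54.3%.

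Most of the distal regions were listed only after PML knockdown. Presence in the lists was shared by 2703 regions (44.8%), while 3229 (53.5%; Wilson 95% interval 52.2 to 54.7, counting error only; 44.7 to 64.7 over the 22 autosomes) were in the knockdown list only and 106 (1.76%) in the control list only. Over all merged regions these shares were 26.7% and 0.936%. Near starts 3095 of 15477 regions were in the knockdown list only and 75 (0.48%) in the control list only. The share fell as fold rose. When knockdown folds were cut into quintiles of the whole knockdown list, 85.2% of distal and 78.3% of near regions in the lowest quintile were in the knockdown list only. In the second these were 54.8% and 43.6%, and in the third 7.53% and 4.70%. In the top pair of quintiles none of the 281 and 51 distal regions was in the knockdown list only (upper Wilson bounds 1.35% and 7.005%). Among distal regions whose knockdown fold reached the list median of 11.6, the share was 1.58% (12 of 761). The split also moved with the number of peaks in the lists. With the knockdown list reduced to its strongest peaks, as many as in the control list, 26.5% of 3824 distal regions were in the knockdown list only and 9.91% in the control list only, against 9.27% and 2.38% near starts.

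**Figure D1:**
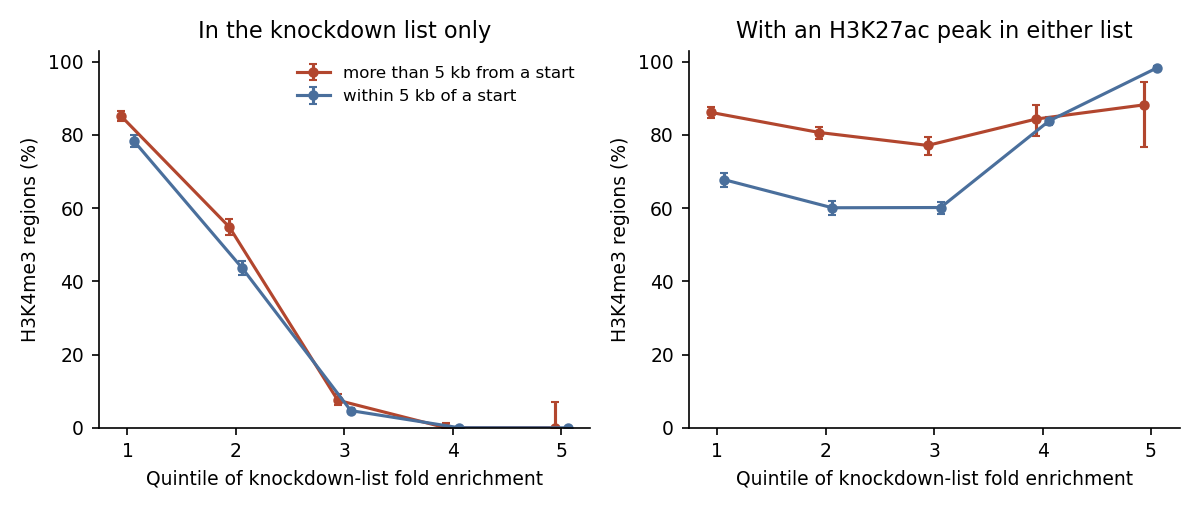
Share of H3K4me3 regions in the knockdown list only (left) and with an H3K27ac peak in either list (right), in percent, by quintile of knockdown-list fold enrichment, with Wilson 95% bars, for regions more than 5 kb from a start and within 5 kb. The left share falls from 85.2% and 78.3% in the lowest quintile to 7.53% and 4.70% in the third, and the right one is higher for distal regions in the 3 lowest quintiles.

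Regions in both lists had a median control fold of 4.76 and a median knockdown fold of 8.24. Near starts the same kind of region had 11.5 and 21.8. A fold is relative to its own list's background, so these values describe each list and give no change. The highest control folds belonged to a region 5.88 kb upstream of ADAMTS8, a secreted metalloprotease gene (chr11:130434491-130435377, 43.9 in control and 30.9 after knockdown), and to one inside ATP9B, a phospholipid flippase gene (chr18:79245276-79247220, 35.9 and 25.5). Both had H3K27ac peaks in both lists, with folds of 9.69 and 3.72 at ADAMTS8 and 27.5 and 32.4 at ATP9B. Next came a region 13.0 kb from ZNF692, a zinc finger gene, with 35.8 and 50.9, which holds TRL-CAA4-1. The other 7 of the top 10 had control folds from 31.6 to 34.4. They lay nearest to OR11H1, ENPP6, FAM72C, H2AC12 (a histone H2A gene), GNGT2 (a G protein gamma subunit), SP8 (a zinc finger transcription factor) and IER5 (an immediate-early response gene). The OR11H1 and FAM72C regions had no H3K27ac peak and lay 0.058 and 0.892 Mb from an assembly gap, and the OR11H1 region was 3360 kb from that gene.

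**Figure D2:**
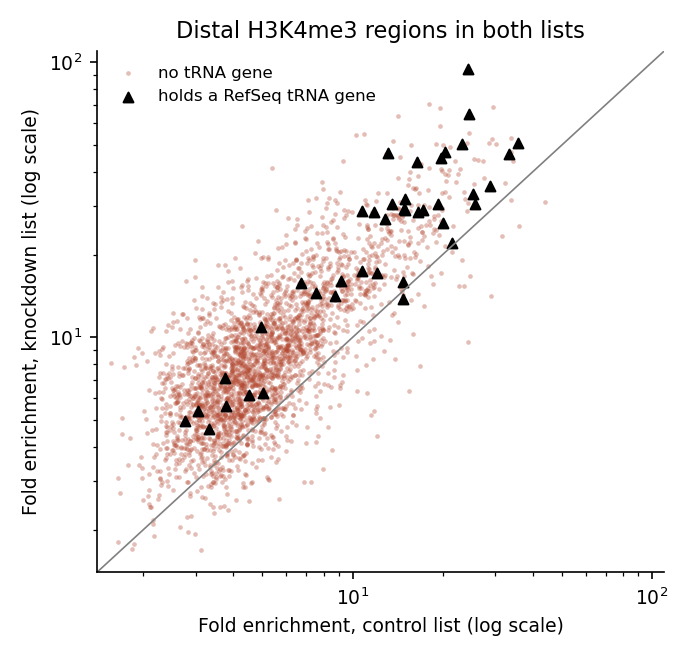
Fold enrichment of the 2703 distal regions in both H3K4me3 lists, control list against knockdown list, both on log axes, with the line of equal values. Triangles are regions that hold a RefSeq tRNA gene; they reach 94.2 in the knockdown list.

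Transfer RNA genes sat in some of the strongest distal regions. The GENCODE annotation used for the rule does not list tRNA genes, and RefSeq places 52 of its 439 autosomal tRNA genes inside 43 distal regions (0.71%). A tRNA gene lay inside 0.51% of all merged regions and 0.40% of those near starts, so holding one is not particular to distal regions. In all, 201 of the 439 lay in some H3K4me3 region, 80 of them near a start. Of the 43 regions, 40 were in both lists, 3 in the knockdown list only and none in the control list only. Chromosome 6 held 21 and chromosome 1 held 10, where large tRNA gene clusters are known. Control folds ran from 2.76 to 35.8 with a median of 14.7, and knockdown folds from 3.57 to 94.2 with a median of 26.9. They made up 10 of the 50 distal regions with the highest control folds. The maximum of 94.2, chosen after its value was seen, was at chr11:76234616-76237182, which holds the 2 proline tRNA genes TRP-AGG2-4 and TRP-TGG2-1 and had 24.4 in the control list. H3K27ac peaks were present at 26 of the 43 and absent from 17, and 17 were CpG-island-like. Regions of chromosome 8 were left out of the comparison with RefSeq starts only. A RefSeq promoter start lay within 5 kb of 355 of the 5745 distal regions compared (6.18%) and within 1 kb of 207. Some of the set is thus near a start that another annotation lists. Without the 355 and the tRNA regions 5640 remained, 54.5% of them in the knockdown list only. The regions of chromosome 8, not compared with RefSeq starts, were kept among them.

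Most distal regions carried H3K27ac, and those in the knockdown H3K4me3 list only mostly had H3K27ac in both lists, as did most of all distal regions. An H3K27ac peak of either list overlapped 4963 distal regions (82.2%; interval 81.2 to 83.1; median 81.8% over autosomes), against 78.9% of all merged regions and 75.1% near starts. In the lowest quintile of knockdown fold the shares were 86.2% distal and 67.8% near starts, in the third 77.1% and 60.2%, and in the highest 88.2% and 98.4%. Of the 3229 distal regions in the knockdown H3K4me3 list only, 2608 (80.8%) had H3K27ac in both lists, 168 (5.20%) in the knockdown list only, 30 in the control list only and 423 (13.1%) in neither. H3K27ac was in both lists at 75.1% of all distal regions. Over all merged regions 71.8% had H3K27ac in both lists, 5.18% had H3K27ac in the knockdown list only and 1.86% in the control list only. Near starts 61.7% of the knockdown-only H3K4me3 regions had H3K27ac in both lists. The H3K27ac peaks at these distal regions had a median rank at the 71.6 percentile of control and the 73.8 percentile of knockdown folds. Those at all merged H3K4me3 regions had 68.3 and 69.7, and those at knockdown-only regions near starts 66.3 and 70.6. In the other direction, H3K4me3 was on 3868 of 15314 distal H3K27ac regions (25.3%). H3K4me3 and H3K27ac summits lay a median of 40 bp apart at distal regions and also 40 bp apart near starts.

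**Figure D3:**
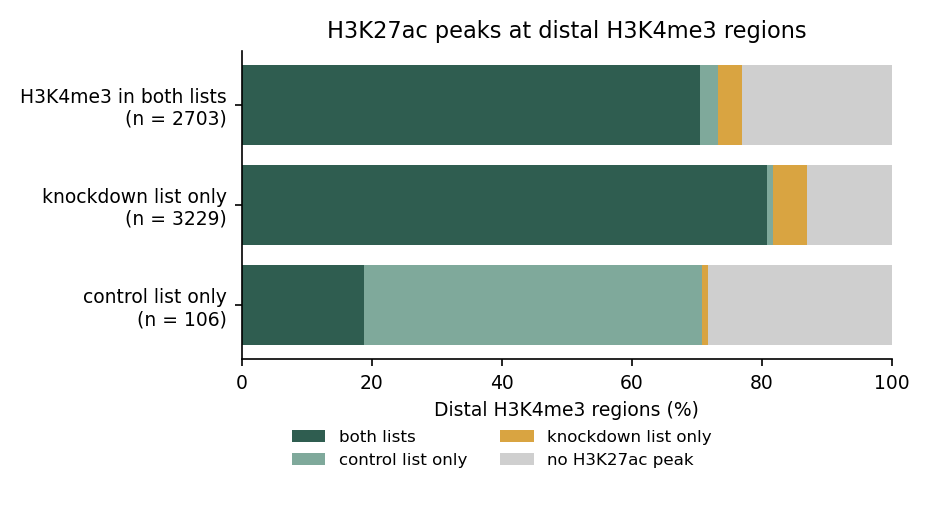
Share of distal H3K4me3 regions, in percent, with an H3K27ac peak in both lists, 1 list only or neither, for regions in both H3K4me3 lists (n = 2703), the knockdown list only (n = 3229) and the control list only (n = 106). H3K27ac in both lists makes up 80.8% of the knockdown-only bar and 18.9% of the control-only bar.

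Regions listed only after knockdown had knockdown folds up to 13.7. Both regions at that value overlapped exons: one in SSC5D, a scavenger receptor gene (chr19:55503775-55504243, 13.7), and one in PRELP near OPTC, both small leucine-rich proteoglycan genes (chr1:203487386-203488210, 13.7). Each had H3K27ac in the knockdown list only, at folds of 6.62 and 7.74. The third lay 8.43 kb from IGFBP7, a secreted growth factor binding protein gene, inside its antisense lncRNA (chr4:57118817-57119843). Its H3K4me3 fold was 12.5, and its H3K27ac fold 5.79 in control and 21.0 after knockdown. The region nearest FAM120B had 12.4, with H3K27ac folds of 11.7 and 36.9. Those nearest HES1 (a Notch-responsive repressor), NTMT1 (a protein N-terminal methyltransferase), PARP11 (an ADP-ribosyltransferase), POMGNT2, TMEM135 and LPIN1 (a phosphatidate phosphatase) had H3K4me3 folds from 11.9 to 12.2. Their distances to these genes ran from 10.5 kb at LPIN1 to 158 kb at PARP11 and 164 kb at HES1. At HES1 and PARP11 a lncRNA start was nearer, at 8.93 and 5.57 kb. Of the 10, 6 had H3K27ac in both lists and 4 in the knockdown list only. Each of the 6 had a higher H3K27ac fold in the knockdown list, as did the median over all merged regions, at 8.02 and 10.6 (control and knockdown).

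Distal regions were poor in CpG compared with regions near starts, but richer than distal H3K27ac regions without H3K4me3. The median ratio of observed to expected CpG was 0.31 in distal regions, 0.60 near starts and 0.18 at H3K27ac-only regions, and 0.21 in windows 10 kb to either side of the distal regions. A window with at least 50% GC and a ratio of at least 0.6 was called CpG-island-like. This held for 531 distal regions (8.79%), 46.5% of those near starts, 0.46% of the H3K27ac-only regions and 2.41% of flanking windows. Among distal regions it held for 15.2% of those in both lists and 3.62% of those in the knockdown list only. Near starts these shares were 53.9% and 18.1%, so this difference was not particular to distal regions. Among distal regions the share also rose with knockdown fold, from 3.46% in the lowest quintile to 52.9% in the highest. CpG content and H3K27ac went in opposite directions. H3K27ac was present at 242 of the 531 CpG-island-like regions (45.6%) and at 85.7% of the others. By rising quintile of knockdown fold the CpG-island-like share with H3K27ac was 28.4%, 33.1%, 39.6%, 79.4% and 85.2%, and that of the others 88.2%, 83.8%, 84.5%, 87.0% and 91.7%. The gap was thus wide in the 3 lower quintiles, while in the upper pair the intervals overlapped. Near starts H3K27ac was present at 69.6% of CpG-island-like regions and 79.9% of the others. The direction was therefore not particular to distal regions.

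**Figure D4:**
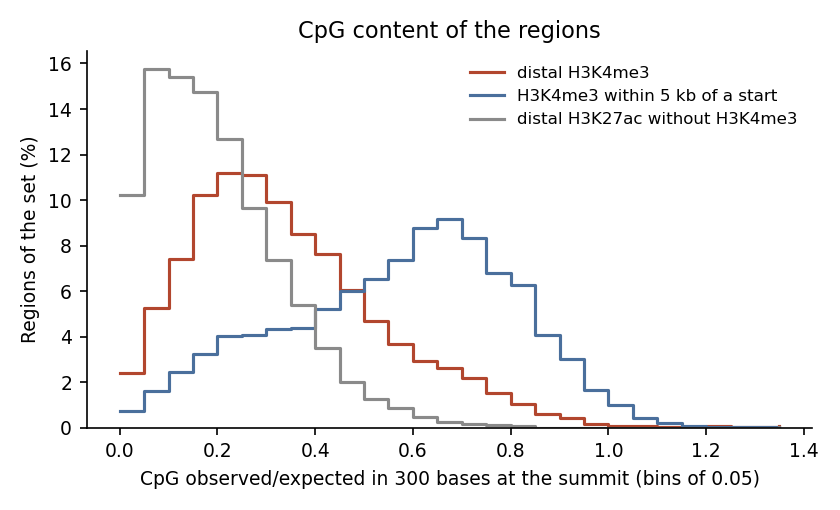
Ratio of observed to expected CpG in the 300 bases around the summit, in bins of 0.05, as a percent of each set. Distal H3K4me3 regions (median 0.31) lie between distal H3K27ac regions without H3K4me3 (0.18) and H3K4me3 regions within 5 kb of a start (0.60).

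AP-1 motifs were more frequent than near starts, and most frequent some distance to the side of the summit. Compared with H3K27ac-only regions their share was close in 200 and 300 bases and lower in 500 bases. Within 300 bases, 14.9% of distal regions held a match (interval 14.0 to 15.8), against 6.51% near starts, 14.1% of H3K27ac-only regions, 8.97% of flanking windows and 8.67% of all merged regions. Where CpG-island-like windows were left out, the shares were 15.6% distal and 10.0% near starts. It was 16.2% in regions with H3K27ac and 8.84% in those without, and 16.2% in knockdown-only regions and 13.5% in those of both lists. The width of the window moved the share. It was 7.52% in 200 bases and 35.2% in 500, with 3.53% and 14.5% near starts and 7.38% and 39.5% at H3K27ac-only regions. In steps of 50 bases from the summit, a profile added after the data were seen, distal regions had 3.31 matches per 100 regions in the first step and 14.5 at 200 to 250 bases, falling to 3.59 at 950 to 1000. Near starts the same steps gave 1.55, 4.90 and 2.51, and at H3K27ac-only regions 3.32, 18.01 and 2.92. TGANTCA reads the same on both strands, so each site counts once.

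**Figure D5:**
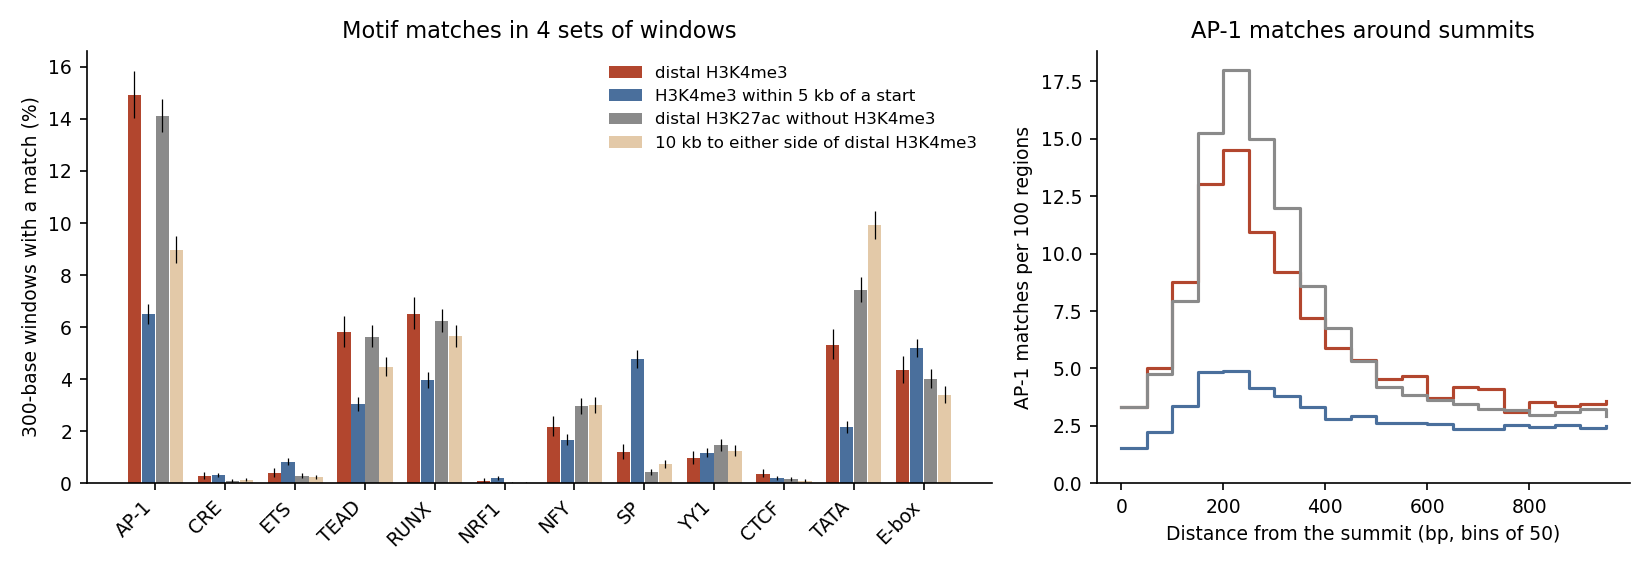
Left, percent of 300-base windows with a match to each of 12 motifs, with Wilson 95% bars, in 4 sets of windows; right, AP-1 matches per 100 regions by distance from the summit in base pairs. AP-1 is at 14.9% in distal regions and 6.51% near starts, and its matches peak at 200 to 250 bases from the summit in all 3 sets.

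Of the other motifs, GGAATGT, bound by TEAD factors, was in 5.81% of distal regions, 3.04% of those near starts, 5.64% of H3K27ac-only regions and 4.46% of flanking windows. TGTGGTT, bound by RUNX factors, was in 6.51%, 3.95%, 6.24% and 5.65%. GGGGCGGGG, bound by SP factors, was in 1.19% of distal regions and 4.77% of those near starts. TATAAAA was in 5.32% and 2.15%, and in 9.92% of flanking windows. All motifs were searched on both strands. TGACGTCA (CRE), CCGGAAGT (ETS), the NRF1 and CTCF motifs and AAGATGGC (YY1) were each in under 1% of distal regions, CCAATCA (NFY) was in 2.17%, and CACGTG (E-box) was in 4.34%. A match describes letters, not binding.

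Of the 106 regions in the control list only, 53 lay in sequence that repeats with about the unit length of alpha satellite, the tandem repeat of human centromeres. Over all 106, the median width was 331 bp and the median control fold 3.57. Of the 106, 50 (47.2%) lay within 1 Mb of an assembly gap, against 7.105% of all distal regions. Alpha satellite consists of units of nearly constant length in tandem. No repeat annotation was used, so the likeness rests on this period and textbook knowledge alone, and an assembly gap need not be a centromere. A stretch of 150 bases with at least 60% identity to the sequence 1 unit length further on, give or take 5 bases, was found within 1000 bases around the summit of 53 of the 106 (interval 40.6 to 59.4%), 9 of the 2703 in both lists and 14 of the 3229 in the knockdown list only. Shorter units in tandem also pass this measure: the ATP9B window scored 70.7% and the TRIML1 window 100%, so the counts outside the control-only regions are not counts of alpha satellite. None of the 106 control-only windows matched itself at 70% of positions at a lag of 10 to 100 bases. This measure was the second one tried, after the first had been seen to give 22 of the 106 and none of the other distal regions. The first asked for 50% identity of the whole window at a lag of exactly 1 unit. The 53 lay on 18 chromosomes, 46 of them within 1 Mb of a gap, and 40 had H3K27ac in the control list only. The other 53 had 4 within 1 Mb of a gap, and 15 had H3K27ac in the control list only, 12 in both lists and 26 in neither. The same measure was passed by 200 of 11446 distal H3K27ac regions without H3K4me3 (1.75%) and 55 of 15477 H3K4me3 regions near starts (0.36%). Among control-only regions near starts it was passed by 1 of 75 (1.33%). The top control folds of the 106 were 16.3 at chr17:25920047-25920375, 9.45 at chr3:91572692-91573041, 9.11 at chr17:25074323-25074673, 8.66 at chr17:25352948-25353553 and 8.20 at chr10:40615647-40615931. All 5 had the period and H3K27ac in the control list only, with folds from 6.95 to 15.5. The 5 distal regions farthest from any start, at 1912 to 3537 kb, were also in the control list only. The handling of reads from repeated sequence is not stated by the labels, so the lists cannot tell copies of a repeat apart, and the part this played in the result was not tested.

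Shared sequence was also found elsewhere in the set. At least 1 run of 31 bases was shared with another distal region by 679 of the 6038 (11.2%), namely 56.6% of control-only, 13.8% of both-list and 7.59% of knockdown-only regions. No such share is given here for other sets, so it cannot be called particular to distal regions. Wider regions hold more runs, and median widths were 331 bp in control-only, 942 bp in both-list and 528 bp in knockdown-only regions.

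By broad domains, distal regions were less often in LMNB1 domains than sequence in general, and more lay in H3K9me3 domains after knockdown. H3K9me3 is a mark of silenced chromatin. LMNB1 domains held 2.47% of distal regions in control cells and 2.38% after knockdown, against 7.19% and 5.99% of the sequence outside PML domains. The control domains held 1.25% of regions near starts, 3.30% of H3K27ac-only regions and 10.1% of all merged regions, which include those in PML domains. H3K9me3 domains held 347 (5.75%) in control cells and 705 (11.7%) after knockdown, while their share of sequence outside PML domains was 11.5% and 12.5%. The control and knockdown domains held 2.71% and 6.13% of regions near starts and 6.95% and 10.9% of H3K27ac-only regions. For all merged regions it was 6.19% and 7.72%, so the higher share after knockdown was not particular to distal regions. In a knockdown domain and no control one were 431 distal regions (7.14%; 0 to 21.1 over autosomes), against 4.24% of all merged regions and 4.23% of those near starts. In a control domain and no knockdown one were 73 (1.21%), against 2.71% and 0.81%. Of the 431, 260 were in the knockdown H3K4me3 list only and 170 in both lists, where 53.5% of all distal regions were in the knockdown list only. In a knockdown domain and no control one were 8.05% of knockdown-only and 6.29% of both-list distal regions. Near starts these shares were 6.49% and 3.64%, so the difference was not particular to distal regions. The domain lists have 1 value per condition, so this has no replicate check.

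Some distal regions lay close to one another, which was not compared with other sets. Joined across gaps of at most 25 kb, 2135 regions formed 906 clusters and 3903 stood alone. The cluster with most members had 8 regions over 65.4 kb beside IER5 (chr1:181077379-181142772). All 8 had H3K27ac in both lists, 5 were in the knockdown H3K4me3 list only, and knockdown folds ran from 3.63 to 23.3. Some of the 8 had the same H3K27ac folds (32.1 in control and 55.1 after knockdown), so 1 H3K27ac peak can count for several regions. In this cluster 7 of the 8 lay in a knockdown H3K9me3 domain and none in a control one. A cluster of 7 lay in TRIO, a guanine nucleotide exchange factor gene (chr5:14153591-14208630), with 4 in both lists, 3 in the knockdown list only and knockdown folds from 2.40 to 10.4. The third cluster, also of 7, was on chromosome 8, with 5 in both lists, and all of its regions had H3K27ac.

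Among protein-coding genes, 3315 of 19103 (17.4%) were the nearest by start to at least 1 distal region. Nearness does not show that a region acts on the gene. The counts below are to be read beside all distal regions, of which 53.5% were in the knockdown list only and 82.2% had H3K27ac. Regions named for a gene list, here and in the next paragraph, were those with the highest fold in either list. Distal regions in both lists had median folds of 4.76 in control and 8.24 after knockdown. As above, such folds describe each list and give no change. Of 15 EMT and mesenchymal genes 8 were nearest to one, with 17 regions, all with H3K27ac and 11 in the knockdown list only. CD44, a hyaluronan receptor gene, had 6: one at chr11:35082383-35084374 had H3K4me3 folds of 5.46 and 12.8 (control and knockdown), and one at chr11:35165536-35167278 was in the knockdown list only with 10.6. YAP and TEAD targets also had 8 of 15, with 24 regions, 13 of them in the knockdown list only. Folds were 14.7 and 14.2 at the region nearest LATS2, a Hippo pathway kinase gene, and 3.96 and 13.3 at one in TEAD1, a gene for the factor that YAP binds. AP-1 and immediate-early factors had 5 of 14, with 9.40 and 13.7 near JUND and 7.08 and 13.3 in ATF3. For matrix and adhesion genes it was 6 of 17, with 9.50 and 27.9 near ITGA3, an integrin subunit gene, and 4.32 and 10.9 in COL4A2, a basement membrane collagen gene.

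Inflammatory factors had 4 of 15, among them IL6, whose region 7.57 kb away was in the knockdown list only with a fold of 6.96, and TNFAIP3, an inhibitor of NF-kB signalling, with 2.79 and 6.46. Hypoxia genes had 3 of 13, with 10.2 and 15.6 at one of 6 regions nearest EGLN3, a prolyl hydroxylase gene, and 4.05 and 9.24 at another. Metastasis genes of this cell line had 2 of 18: CXCR4, a chemokine receptor gene, with 5.23 and 19.7 at a region 304 kb away that had no H3K27ac and lay in control LMNB1 and H3K9me3 domains, and EREG, an EGF receptor ligand gene, with 1.93 and 9.12. Basal genes had 2 of 9, with 8.20 and 12.9 near EGFR and 2.99 and 16.6 near KRT17. Luminal genes had 4 of 14, with 7.49 and 12.5 in ESR1, the estrogen receptor gene, and 4.04 and 9.13 near KRT19. Interferon response genes had 0 of 14.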

How the data were processed

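Distal H3K4me3 regions were taken from MDA-MB-231 ChIP-seq lists (25 libraries in the labels, 9 lists used). Per the submitters' processing notes, the build was hg38; the notes also name MACS2 2.2.7.1, deepTools, BWA 0.7.12-r1039 and Picard 1.104, with no role stated. The deposited peak lists give a fold enrichment (a ratio) and a −log10 q-value per peak, at least 1.30 in both H3K4me3 lists, with replicates 1 and 2 called together per the peak names. The authors deposited 1 score per broad domain, of no stated unit; only domain positions were used. Filters before calling are not given by these sources. Input and H3K27me3 libraries were not used here.

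Starts were the 243687 transcript starts of GENCODE 44. Peaks were merged at 1 bp of overlap, and sequence features used 300 bases at the control summit, or the knockdown summit where there was no control peak. Scripts ran under Python 3.11.15 with pandas 2.3.3, numpy 2.4.6, pysam 0.24.0, scipy 1.17.1 and matplotlib 3.10.9, and the functions were tested on simulated data. No test between conditions was possible, so shares carry Wilson 95% intervals, which cover counting error only, and the spread over 22 autosomes.

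The members, gene lists and motifs were chosen with earlier results of these data known. Named regions were the 10 highest by fold in both lists and in the knockdown list only, the 5 highest in the control list only, the 5 farthest from a start, the 3 largest clusters and up to 2 per gene list. Those of a gene list were taken by highest fold in either list. Sequences were to be printed for the first 2 of the first 3 sets and the region with most AP-1 matches; in the knockdown-only set the first 2, at SSC5D and OPTC, overlap annotated UTRs and were replaced by the next 2. Alternatives were other distance, width and PML rules, stricter or equal-sized peak lists, other overlaps and other windows; leaving out regions by RefSeq starts, tRNA genes, gaps or a repeat period of about the alpha satellite unit length, and the split at the median fold, were added after the data were seen.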

Additional observations from a re-analysis of the deposited data

How the results depend on the processing

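Of 41 alternative values, 28 stayed within the interval of the reported value (for counts of regions, within 1.5 times), and 13 did not; the cause was not tested beyond what each alternative changes by construction. A minimum distance of 20 kb left 2312 regions. The share in the knockdown list only was 51.9% at a −log10 q of at least 5, 26.5% with equal numbers of peaks in both lists and 1.58% at knockdown folds of at least the list median. The share in the control list only was 9.91% with equal numbers of peaks, 0.889% without regions with a repeat period of about the alpha satellite unit length and 1.396% with the first version of that measure. H3K27ac was on 79.3% when at least 50% of the region had to be covered, 77.4% at an H3K27ac −log10 q of at least 5 and 83.2% away from assembly gaps. CpG-island-like sequence made up 6.23% over whole regions. AP-1 matches were in 7.52% of 200-base and 35.2% of 500-base windows. The number of control-only regions with a repeat period of about the alpha satellite unit length was 53 at identities of at least 60%, 55% or 50%.

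No paired analysis was possible because each mark and condition has 1 list, called on replicates 1 and 2 together, and leaving out a replicate could not be done for the same reason. Read depth is unknown, so how many regions fall under the threshold for want of reads cannot be judged. Repeated sequence, a single cell line and the reading of the list names limit what the counts can show.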

Other observations

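Some genes had many distal regions, and these were chosen after their values were seen. Over all distal regions 53.5% were in the knockdown list only and 82.2% had H3K27ac. RUNX1, a transcription factor gene of the RUNX family, was nearest to 13 regions, all with H3K27ac and 7 in the knockdown list only. NALF1 also had 13, with H3K27ac at 9. FAT1 (an atypical cadherin), RPTOR (a subunit of mTORC1), STARD13 and ZMIZ1 had 11 each, of which 9, 7, 8 and 8 were in the knockdown list only, and KLF6, a zinc finger factor, had 10 with 3. TPTE had the most, 17, with H3K27ac at 10 and 2 in the knockdown list only. WSB1 had 10 and ZNF33B had 9, with none of either in the knockdown list only and H3K27ac at all of them. Nearest did not mean close here. The control-only regions named above on chromosome 17 lay 1374 to 2219 kb from WSB1, and the one on chromosome 10 lay 1979 kb from ZNF33B. All of these had the repeat period of about the alpha satellite unit length. At least 4 distal regions were nearest to 343 protein-coding genes.

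Among control-only regions without a repeat period of about the alpha satellite unit length, the highest control fold was 6.92 in EEPD1 (chr7:36258570-36259035), with no H3K27ac peak. The next were 5.53 nearest DHX15, with H3K27ac in the control list only, and 5.40, 5.15 and 4.89 nearest PICALM, SOBP and OXGR1, with no H3K27ac peak.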
